A study of Caenorhabditis elegans with 9 samples.

Results

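The comparison set L1 larvae of Caenorhabditis elegans with a deletion of ogt-1 directly against L1 larvae with a deletion of oga-1. It takes in every array that the labels assign to either mutant: 3 arrays of the ogt-1(ok430) mutant and 3 arrays of the oga-1(ok1207) mutant, which makes 6 of the 9 arrays of the series. The other 3 arrays, of wild type, entered the estimate of the spread and served to place each difference, and all 22548 probe sets other than the array's own controls were tested. All 3 genotypes were handled alike. Eggs were freed from adults by bleaching and hatched in buffer without food, and the larvae were taken 48 h later. They were then fed OP50 bacteria on plates for 3 h, and biotin-labelled cRNA was made from 4 ug of total RNA. Each mutant is represented by 1 deletion allele in the whole animal, and the labels do not say whether the strains had been crossed back to wild type. The arrays are labelled as biological replicates 1 to 3. Nothing in the labels says that replicates came from separate cultures, so p-values measure the spread between these samples, which may be partly technical.

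OGT-1 attaches the single sugar O-GlcNAc to serines and threonines of nuclear and cytoplasmic proteins, and OGA-1 removes it. The sugar donor is made from glucose by the hexosamine pathway, and in the worm the modification is known for its ties to insulin-like signalling, to nutrient stores and to the transcription machinery. Loss of OGT-1 leaves proteins without the sugar, and loss of OGA-1 leaves the sugar in place. The direct comparison asks which genes are set apart by losing the addition of O-GlcNAc as against losing its removal.

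Values are deposited log2 signals, 1 per probe set and array. Differences are the mean of the ogt-1 mutant minus the mean of the oga-1 mutant on the log2 scale with the standard error (SE) of the limma model, and p-values carry a Benjamini-Hochberg adjustment across the 22548 tested probe sets. Those with an adjusted p under 0.05 are referred to as called. Folds are printed only for genes in which both mutants averaged more than 7.45, the median over the means of all probe sets, since background was not assessed and a low signal understates a difference. Genes measured by a probe set whose identifier marks possible cross-hybridisation with related sequences are called uncertain below. The larvae were processed whole, so fewer cells of a type and less RNA per cell cannot be told apart.

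The 6 arrays separated by genotype on the first principal component but not by their correlations. Correlations across probe sets were 0.992 to 0.995 between arrays of 1 mutant and 0.985 to 0.994 between arrays of different genotypes, so the ranges overlapped. The first principal component of the 6 arrays (46.4% of the variance) placed the ogt-1 mutant at 10.7 to 28.9 and the oga-1 mutant at -23.2 to -17.4. A measure of RNA quality separated the mutants too. The mean excess of the 3-prime over the 5-prime control signal of actin, GAPDH and ubiquitin was 1.31 to 1.51 in the ogt-1 mutant, 1.16 to 1.28 in the oga-1 mutant and 1.27 to 1.35 in wild type. The mutants did not overlap in it (difference 0.217, two-sided exact permutation p = 0.1, the smallest p that 3 arrays against 3 allow). Taken singly, the excess of actin and that of ubiquitin did not overlap between the mutants, but that of GAPDH did. It was 0.03 to 0.33 in the ogt-1 mutant and -0.19 to 0.11 in the oga-1 mutant (two-sided exact permutation p = 0.4). RNA quality and genotype therefore cannot be told apart in this comparison. With this measure as a covariate 9 probe sets were called in place of 652. Of the genes described below, srw-85, C25G4.7, slc-17.5, F56A4.10 and srg-2 were among those 9. The genes shc-1 and osm-11 were among them through another of their probe sets, and the remaining 2 probe sets carry no single gene symbol. All other calls below were lost with the covariate. All 652 differences kept their direction with it. Their median size was 0.54 with the covariate, beside 0.63 without it, and the median SE was 0.20 beside 0.11. Of the 652, 196 were at least as large with the covariate and 456 were smaller.

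The deleted genes were read first. The library labels were borne out for oga-1: its brightest probe set (uncertain) read 9.53, 9.64 and 9.66 in the ogt-1 mutant, against 8.63, 8.74 and 8.88 in the oga-1 mutant and 9.31 to 9.63 in wild type. The difference was 0.86 ± 0.10 (SE, adjusted p = 0.00402), 1.82-fold, so the oga-1 signal was reduced in its own mutant and not absent. A second oga-1 probe set differed by 0.66 ± 0.11 (adjusted p = 0.0159, 0.0563 without oga-1 mutant replicate 3). Another differed by 0.40 ± 0.11, which did not pass (adjusted p = 0.0900). The ogt-1 signal went against its label. One ogt-1 probe set (uncertain) read 9.97, 9.99 and 9.69 in the library labelled ogt-1 mutant, against 9.18, 9.19 and 8.94 in the oga-1 mutant and 9.10 to 9.32 in wild type. It was higher in the ogt-1 mutant by 0.78 ± 0.11 (adjusted p = 0.00857). The other ogt-1 probe set (uncertain) also differed by 0.78, with an SE of 0.17 and an adjusted p of 0.0418, which reached 0.0653 to 0.123 without ogt-1 mutant replicate 1, 2 or 3, oga-1 mutant replicate 1 or 3, or wild type replicate 2 or 3. The labels and the annotation do not place these probe sets inside or outside the deleted stretches. The ogt-1 signal is therefore no check of the genotype, and the directions below rest on the libraries labelled ogt-1 mutant.

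Between the mutants 652 probe sets were called, 2.89% of those tested. Of these, 297 were higher in the ogt-1 mutant (1.32% of all tested) and 355 were lower (1.57%). The median size of a called difference was 0.63 on the log2 scale, so most were modest. A difference past 2-fold was reached by 100 called probe sets (0.443% of all tested), 36 of them higher and 64 lower, and past 4-fold by 3 higher and 12 lower. The arrays of the mutants did not overlap at any of the 652, nor at 22.9% of all probe sets. Arrays with the same replicate number tended weakly to deviate together, and a fit that blocked on that number called 1128 probe sets (518 higher, 610 lower). Leaving out 1 array at a time, the count ran from 255 without ogt-1 mutant replicate 3 to 803 without wild type replicate 1. It was 267 without ogt-1 mutant replicate 1, 326 and 296 without oga-1 mutant replicates 2 and 3, and 360 and 383 without wild type replicates 2 and 3. In every one of these 9 fits 164 probe sets were called, 80 higher and 84 lower.

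**Figure D1:**
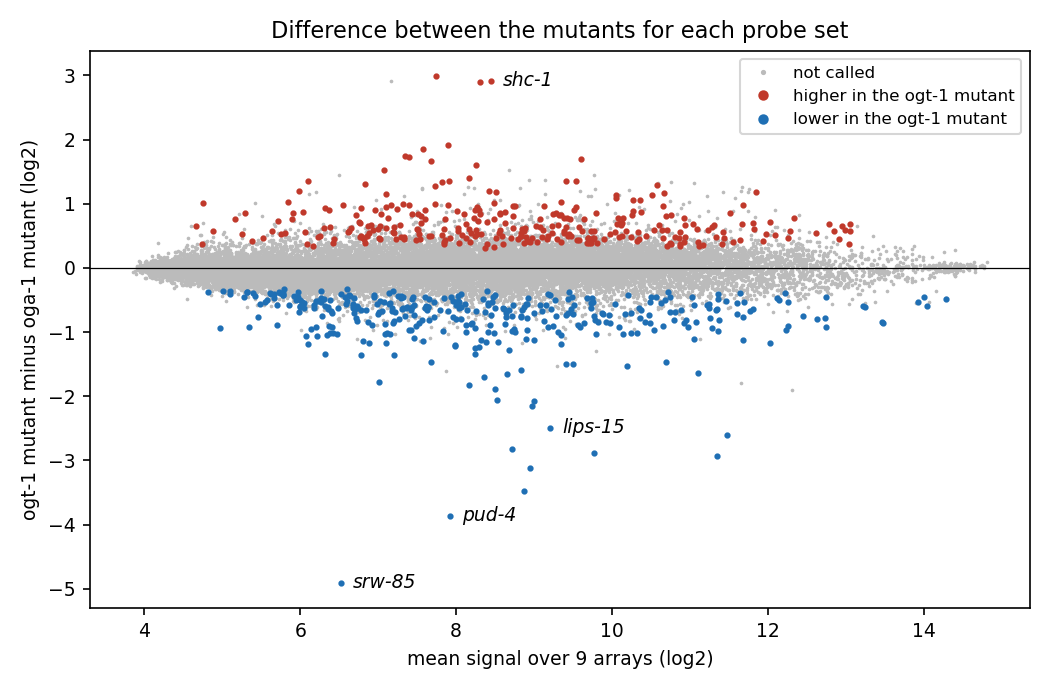
Difference between the mutants (ogt-1 mutant minus oga-1 mutant, log2) against the mean signal over the 9 arrays (log2) for each of 22548 probe sets, with the 652 called ones coloured. The differences farthest from 0 are on the lower side, where srw-85 lies at -4.90 and pud-4 at -3.86, while the uncertain probe sets of shc-1 reach 2.92 on the upper side.

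The gene with the largest positive difference was shc-1, which encodes an adaptor protein of insulin-like signalling. Its brightest probe set (uncertain) read 10.22, 10.36 and 10.60 in the ogt-1 mutant, against 7.15, 7.64 and 7.64 in the oga-1 mutant and 7.18 to 7.86 in wild type. The ogt-1 mutant stood alone, with the oga-1 mutant at the level of wild type. The difference was 2.92 ± 0.19 (adjusted p = 0.000115), 7.56-fold. A second uncertain probe set of the gene gave 2.89 ± 0.18. The only unmarked probe set of the gene gave 0.99 ± 0.25, and its adjusted p of 0.0672 did not pass (0.0213 without wild type replicate 1), so the size for shc-1 depends on which probe set is read.

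A trehalase gene and a pair of transporter genes followed among the largest positive differences. The trehalase gene tre-2 (uncertain), whose product splits the storage sugar trehalose into glucose, read 12.42, 12.64 and 12.81 in the ogt-1 mutant, against 11.40, 11.42 and 11.48 in the oga-1 mutant. Wild type lay with the oga-1 mutant at 11.48 ± 0.09 (SD, n = 3), and the difference between the mutants was 1.19 ± 0.11 (SE, adjusted p = 0.000587), 2.28-fold. The SLC17-family transporter gene slc-17.5 read 10.39, 10.75 and 10.75 in the ogt-1 mutant, against 8.87, 9.02 and 8.91 in the oga-1 mutant. Its wild-type mean of 9.22 was nearer to the oga-1 mutant, and the mutants differed by 1.70 ± 0.11 (adjusted p = 0.000115), 3.25-fold. For slc-36.4, of the proton-coupled amino acid transporter family, the values were 10.14, 10.63 and 10.31 in the ogt-1 mutant, against 8.91, 9.23 and 8.88 in the oga-1 mutant, a difference of 1.35 ± 0.15 (adjusted p = 0.00304).

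One C-type lectin gene and 2 genes of detoxification families were also among them. The C-type lectin gene clec-3 read 8.58, 9.11 and 8.73 in the ogt-1 mutant, against 6.67, 7.42 and 6.79 in the oga-1 mutant, with wild type at 6.95 (difference 1.85 ± 0.21, adjusted p = 0.00326). The UDP-glucuronosyltransferase gene ugt-13, of a family that attaches sugars to small molecules, read 8.94, 8.94 and 8.12 in the ogt-1 mutant, against 6.99, 6.89 and 6.87 in the oga-1 mutant (1.75 ± 0.19, adjusted p = 0.00259). Replicate 3 of the ogt-1 mutant was the lowest of its group for ugt-13. The glutathione S-transferase gene gst-4, a widely used reporter of oxidative stress signalling through SKN-1, read 8.92, 9.24 and 8.36 in the ogt-1 mutant, against 7.88, 7.47 and 7.11 in the oga-1 mutant. Its difference was 1.35 ± 0.23 (adjusted p = 0.0176), 2.55-fold, but the adjusted p was 0.0586 to 0.0659 without ogt-1 mutant replicate 1 or oga-1 mutant replicate 2 or 3.

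The other 5 of the 12 largest positive differences belonged to genes for which no role is given here. They were K08E7.5 (uncertain, 1.73 ± 0.14), F56A4.10 (uncertain, 1.67 ± 0.19), W06H8.2 (1.53 ± 0.19), sysm-1 (1.33 ± 0.27) and F18E3.11 (1.31 ± 0.19). K08E7.5 held up in a second probe set, not marked, at 1.15 ± 0.13. The call of sysm-1 (adjusted p = 0.0320) was lost without any 1 of oga-1 mutant replicates 1 to 3, ogt-1 mutant replicate 1 or 2, or wild type replicate 2 or 3 (0.0508 to 0.103), and with the 6 mutant arrays alone (0.0579).

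**Figure D2:**
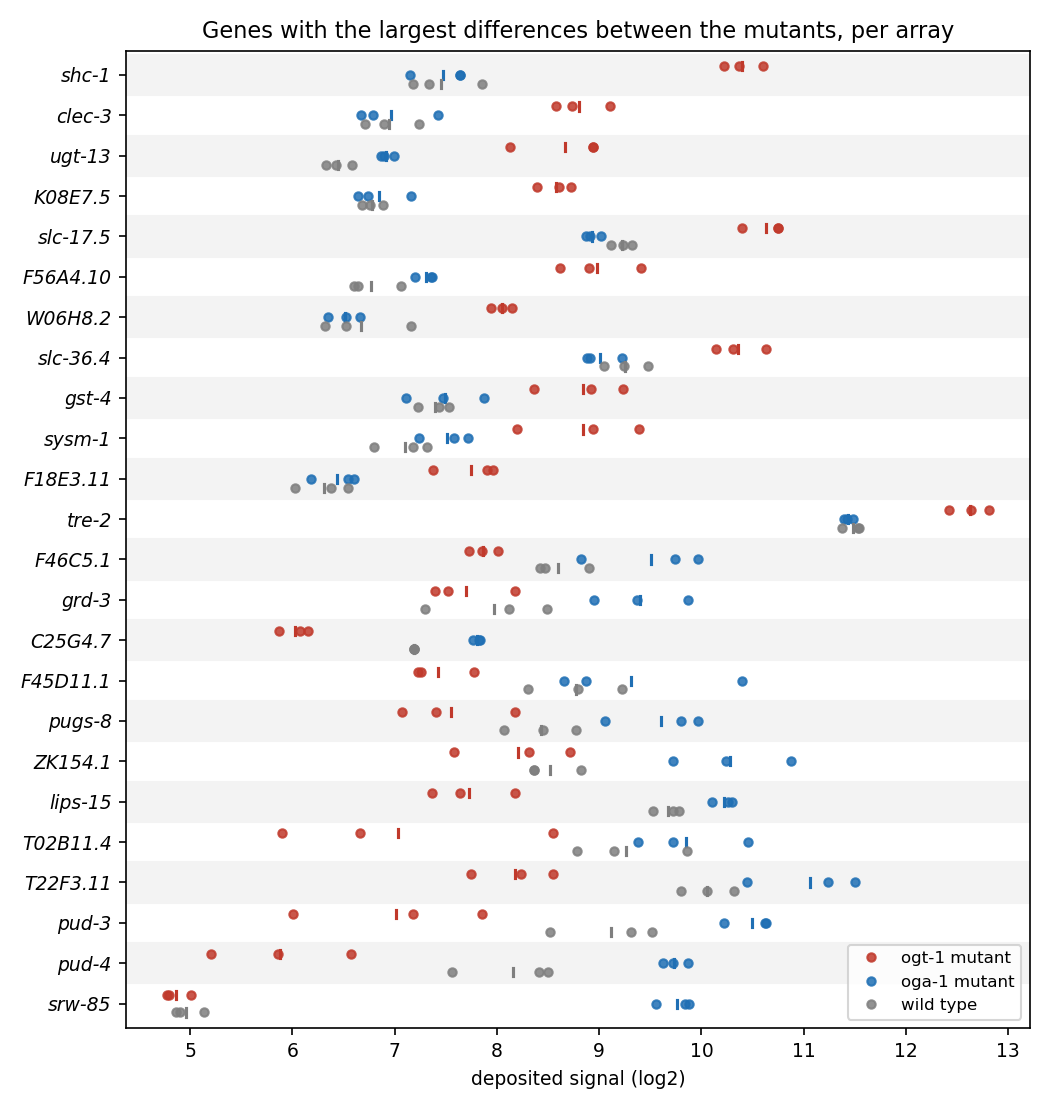
Deposited log2 signal of the 12 genes with the largest positive and the 12 with the largest negative difference, 1 point per array, with the ogt-1 mutant (red) above the oga-1 mutant (blue) and wild type (grey) in each row and a short bar at each group mean. The 24 genes were chosen among those whose red and blue points do not overlap. Wild type lies at the blue points for shc-1 and tre-2, at the red points for srw-85 and between them for pud-4 and pud-3.

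On the lower side the largest difference was that of srw-85, which encodes a G protein-coupled receptor of a chemoreceptor family. It read 4.77, 5.01 and 4.79 in the ogt-1 mutant, against 9.56, 9.84 and 9.88 in the oga-1 mutant and 4.86 to 5.13 in wild type. The ogt-1 mutant and wild type were both near the lowest signals on the arrays, and the oga-1 mutant stood alone. The difference was -4.90 ± 0.12 (adjusted p = 4.16e-08).

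The neighbouring genes pud-3 and pud-4, named for proteins that are more abundant in mutants of the insulin receptor daf-2, were lower in the ogt-1 mutant. For pud-4 the signals were 5.86, 6.57 and 5.21 in the ogt-1 mutant, against 9.86, 9.72 and 9.63 in the oga-1 mutant, and for pud-3 they were 7.18, 7.85 and 6.01 against 10.63, 10.62 and 10.22. Wild type lay between the mutants in both genes, at 8.15 ± 0.52 and 9.12 ± 0.53 (SD, n = 3). The differences were -3.86 ± 0.32 for pud-4 (adjusted p = 0.000430) and -3.48 ± 0.41 for pud-3 (adjusted p = 0.00343). In both genes the ogt-1 mutant arrays spread more widely than those of the oga-1 mutant, with replicate 3 the lowest.

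A lipase-related gene, lips-15, read 7.37, 8.18 and 7.64 in the ogt-1 mutant, against 10.11, 10.30 and 10.26 in the oga-1 mutant and 9.68 ± 0.13 (SD, n = 3) in wild type. It was the ogt-1 mutant that stood apart (-2.49 ± 0.18, adjusted p = 0.000190), 5.63-fold lower. T22F3.11 read 7.75, 8.55 and 8.23 in the ogt-1 mutant, against 10.44, 11.50 and 11.24 in the oga-1 mutant (-2.88 ± 0.28, adjusted p = 0.00103). Its second probe set (uncertain) gave -3.11 ± 0.31. C25G4.7 had the smallest SE among the 12 largest negative differences. It read 6.07, 6.15 and 5.87 in the ogt-1 mutant, against 7.83, 7.76 and 7.83 in the oga-1 mutant and 7.19 on each wild-type array (-1.78 ± 0.09, adjusted p = 1.39e-05). Its identical wild-type values add nothing to the estimate of the spread, which makes the SE and the p-value smaller. The groundhog gene grd-3, of the hedgehog-related family, read 7.39, 8.18 and 7.52 in the ogt-1 mutant, against 8.95, 9.37 and 9.87 in the oga-1 mutant (-1.70 ± 0.33, adjusted p = 0.0281). Its adjusted p was 0.0767 to 0.0992 without ogt-1 mutant replicate 1 or 3 or oga-1 mutant replicate 2 or 3.

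The remaining genes of the 12 were ZK154.1 (-2.08 ± 0.32), pugs-8 (-2.06 ± 0.31), F46C5.1 (uncertain, -1.65 ± 0.26), T02B11.4 (-2.82 ± 0.58) and F45D11.1 (-1.89 ± 0.41). The last 2 were the least secure. The ogt-1 mutant arrays of T02B11.4 read 5.89, 6.66 and 8.55, against 9.72, 9.38 and 10.46 in the oga-1 mutant, and its adjusted p of 0.0361 became 0.0612 to 0.111 without ogt-1 mutant replicate 1 or 2, any 1 of oga-1 mutant replicates 1 to 3 or wild type replicate 2. F45D11.1 read 7.78, 7.23 and 7.26 in the ogt-1 mutant, against 10.40, 8.66 and 8.88 in the oga-1 mutant, where replicate 1 was far above the others. Its adjusted p of 0.0418 became 0.0555 to 0.122 without any 1 of ogt-1 mutant replicates 1 to 3, oga-1 mutant replicate 3 or wild type replicate 2 or 3. With the 6 mutant arrays alone the adjusted p was 0.0638 for T02B11.4 and 0.0664 for F45D11.1, and with a trended and robust prior 0.0740 and 0.0586.

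Wild type was used to place each difference. A wild-type mean within 25% of the difference from a mutant's mean, on either side, was counted as near that mutant, one farther in as between the mutants, and any other as outside. Among the 652 called probe sets wild type lay near the ogt-1 mutant in 91 (14.0%), between the mutants in 308 (47.2%), near the oga-1 mutant in 211 (32.4%) and outside in 42 (6.44%). Over all probe sets tested the shares were 15.5%, 22.1%, 16.6% and 45.8%. These are descriptions, since the mutant means that chose the probe sets also set the scale.

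**Figure D3:**
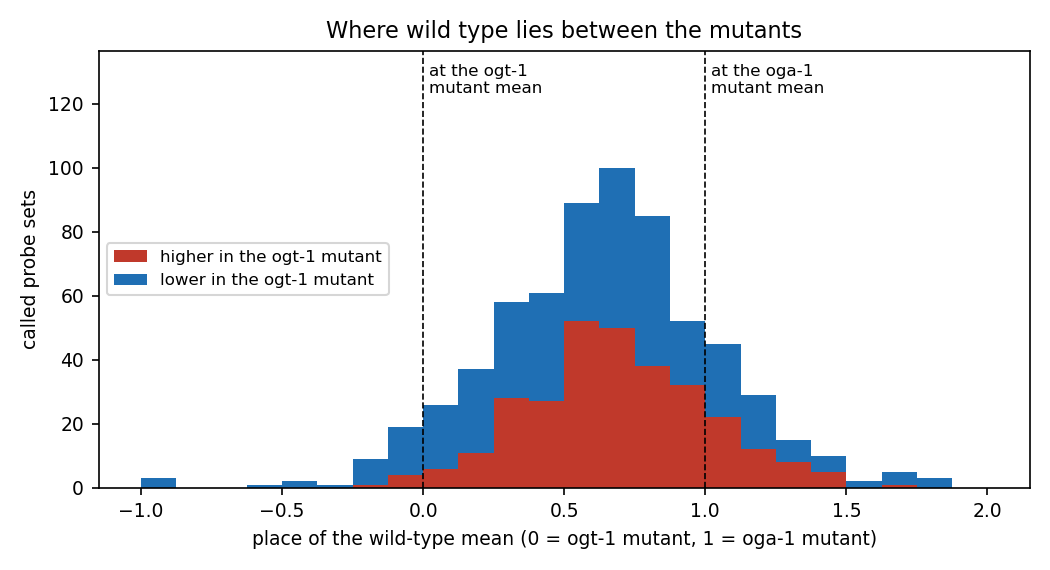
Number of called probe sets by the place of the wild-type mean on a scale that is 0 at the ogt-1 mutant mean and 1 at the oga-1 mutant mean, split by direction; values beyond the ends are drawn in the end bins. The histogram is highest between the mutants and nearer to the oga-1 mutant: wild type was near the oga-1 mutant in 211 of the 652 and near the ogt-1 mutant in 91.

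The place was also read by direction. Of the 297 probe sets higher in the ogt-1 mutant, wild type was near the ogt-1 mutant in 22 and near the oga-1 mutant in 104, and of the 355 lower ones it was near the ogt-1 mutant in 69 and near the oga-1 mutant in 107. The largest differences with wild type near the oga-1 mutant were those of shc-1, T02B11.4, lips-15, clec-3 and K08E7.5. With wild type near the ogt-1 mutant they were srw-85, ZK154.1, grd-3, the collagen gene col-159 (uncertain) and ZK105.1. Of these 5, srw-85 and ZK105.1 passed the test of the oga-1 mutant against wild type (adjusted p = 5.16e-08 and 0.00608), and ZK154.1, grd-3 and col-159 did not (0.0525, 0.122 and 0.0621). ZK105.1 read 6.23, 6.39 and 6.58 in the ogt-1 mutant, against 7.30, 7.89 and 8.05 in the oga-1 mutant and 6.20 ± 0.04 (SD, n = 3) in wild type (-1.35 ± 0.17, adjusted p = 0.00495).

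With wild type between the mutants the largest were pud-4, pud-3, T22F3.11, pugs-8 and F45D11.1. Against wild type in limma the oga-1 mutant passed in none of these (adjusted p = 0.0906 to 0.645). The ogt-1 mutant passed in pud-4, pud-3 and T22F3.11 (0.00849 to 0.0307) but not in pugs-8 and F45D11.1 (0.193 and 0.130). With wild type outside the largest differences were those of ugt-13, F56A4.10, sysm-1, scl-24 and cutl-20. In this last group both mutant means lay on the same side of the wild-type mean but by unequal amounts. Against wild type in limma the ogt-1 mutant passed in each of these genes (adjusted p = 0.000686 to 0.0118). The oga-1 mutant passed in none of them (0.324 to 0.583). The cuticlin-like gene cutl-20 averaged 12.47 ± 0.16 in the ogt-1 mutant, 11.49 ± 0.31 in the oga-1 mutant and 11.09 ± 0.31 in wild type (SD, n = 3 each). Its difference between the mutants was 0.98 ± 0.18 (SE, adjusted p = 0.0256). The secreted SCP-like gene scl-24 averaged 8.53 in the ogt-1 mutant, 9.57 in the oga-1 mutant and 9.93 in wild type (-1.05 ± 0.20, adjusted p = 0.0259). Both calls were lost when single arrays were left out. For cutl-20 this held without ogt-1 mutant replicate 1 or 3 or oga-1 mutant replicate 1 or 2 (0.0602 to 0.0903), and for scl-24 without ogt-1 mutant replicate 3 or any 1 of oga-1 mutant replicates 1 to 3 (0.0550 to 0.0835).

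The gene most raised in both mutants relative to wild type, the cathepsin B-like protease gene cpr-4, is named here after its values were seen. It read 12.75, 12.75 and 12.97 in the ogt-1 mutant, against 13.21, 12.85 and 13.12 in the oga-1 mutant and 8.27 ± 0.39 (SD, n = 3) in wild type. The mutants overlapped, and their difference of -0.23 ± 0.18 did not pass (adjusted p = 0.486, 95% interval -0.63 to 0.16).

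Gene lists were read with 1 probe set per gene. Over 17118 genes 2.93% were called, 1.26% higher in the ogt-1 mutant and 1.67% lower, and the median difference was -0.03. Each list count below is to be read beside these shares. Of 58 lists, 17 had no member called, with medians from -0.18 to 0.17.

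The cuticle collagens, which build the larval exoskeleton, were the list with the most calls. Of 149 collagen genes, 26 (17.4%) were lower in the ogt-1 mutant, beside 1.67% of all genes, and 0 were higher. Their median difference was -0.29, and 141 of the 149 had a negative difference. With the replicate number as a block 34 were lower. The called differences ran from -1.47 to -0.38.

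The collagen gene with the largest difference was col-159 (uncertain). It read 9.72, 10.58 and 9.96 in the ogt-1 mutant, against 11.56, 11.50 and 11.61 in the oga-1 mutant and 10.43 ± 0.31 (SD, n = 3) in wild type (-1.47 ± 0.21, adjusted p = 0.00855). For col-77, not marked, the values were 7.55, 7.55 and 7.59 in the ogt-1 mutant, against 8.07, 8.26 and 8.37 in the oga-1 mutant (-0.67 ± 0.09, adjusted p = 0.00742). The same order was seen in col-145 (uncertain), at 10.63, 10.99 and 10.82 in the ogt-1 mutant, against 11.65, 11.60 and 11.70 in the oga-1 mutant (-0.84 ± 0.13). The gene col-95 (uncertain) averaged 8.37 ± 0.21 in the ogt-1 mutant, against 9.07 ± 0.03 in the oga-1 mutant (SD, n = 3 each). These 4 genes stayed called whichever array was left out.

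Wild type lay near the ogt-1 mutant in 20 of the 26 called collagens, between the mutants in 5, near the oga-1 mutant in 0 and outside in 1. Their median difference from wild type was -0.11 in the ogt-1 mutant, against 0.61 in the oga-1 mutant, and both values share the wild-type arrays. The 26 were chosen by the difference between these same mutant arrays, which by itself sets these medians apart in part. Over all 149 collagens, called or not, the median was 0.02 in the ogt-1 mutant, against 0.29 in the oga-1 mutant. For all genes the values were -0.0002 and 0.02. Against wild type 0 of the 26 were called in the ogt-1 mutant, where 2.59% of all probe sets were, and 7 were called higher in the oga-1 mutant, where 0.497% of all probe sets were called in either direction. The choice of the 26 bears on these counts too, so they are descriptions. Collagen genes resemble one another in sequence, and 16 of the 26 are uncertain. The count of collagens lower in the ogt-1 mutant was 9 without ogt-1 mutant replicate 1 or 3, 10 and 11 without oga-1 mutant replicates 3 and 2, 15 and 16 without wild type replicates 2 and 3, and 0 with the RNA quality covariate, where the list median was -0.16. Of 14 epidermal marker genes 0 were called. Their mean level was 8.60 to 8.91 in the ogt-1 mutant, 8.82 to 9.03 in the oga-1 mutant and 8.84 to 8.97 in wild type, and their part in the collagen result was not tested.

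Other gene families with members in the outer layer had calls in both directions. Of 81 hedgehog-related and Patched-related genes, 5 (6.17%) were lower and 2 (2.47%) higher in the ogt-1 mutant, beside 1.67% and 1.26% of all genes. Their median was -0.15. The 2 higher ones were Patched-related, ptr-6 (uncertain, 8.62 ± 0.10 in the ogt-1 mutant, 7.78 ± 0.19 in the oga-1 mutant) and ptr-17 (8.90 ± 0.04 in the ogt-1 mutant, 8.14 ± 0.24 in the oga-1 mutant, SD, n = 3 each). The 5 lower ones were ligand-like genes, with grd-3 and grl-20 (uncertain, -0.65 ± 0.11) as the 2 with the smallest p. The lower count was 9 with the block, 0 without ogt-1 mutant replicate 1 or oga-1 mutant replicate 3, 1 without oga-1 mutant replicate 2, 2 without ogt-1 mutant replicate 3 or wild type replicate 2 and 3 without ogt-1 mutant replicate 2 or wild type replicate 3. The call of ptr-17 was lost without ogt-1 mutant replicate 1 or 3 (adjusted p = 0.0511 to 0.0593) and grl-20 without ogt-1 mutant replicate 1 or oga-1 mutant replicate 3 (0.0613 to 0.0684). Of 36 astacin proteases, some of which process the cuticle, 1 was called, and 2 were lower with the block. The called gene was nas-28 (-0.97 ± 0.16), whose call was lost without ogt-1 mutant replicate 3 or oga-1 mutant replicate 3 (0.0501 to 0.0514).

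**Figure D4:**
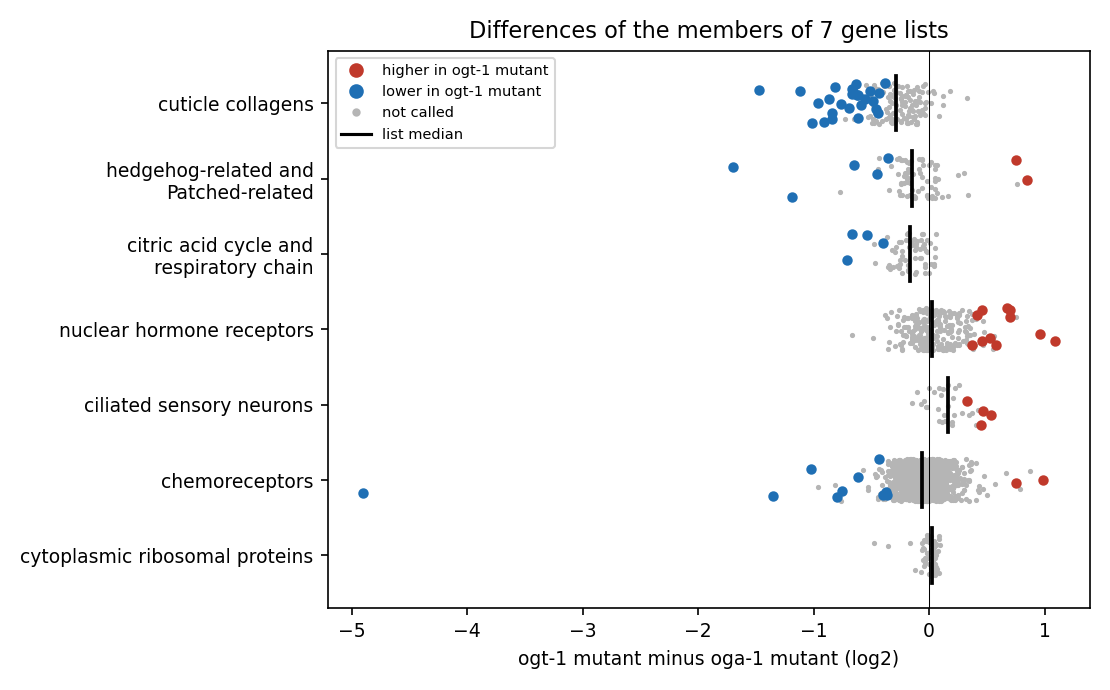
Difference between the mutants (ogt-1 mutant minus oga-1 mutant, log2) for every member of 7 gene lists, 1 point per gene, coloured where called, with a bar at the list median. All 26 called collagens lie left of 0 and all 11 called nuclear hormone receptors right of it, while no ribosomal protein gene is coloured.

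Nuclear hormone receptors, ligand-regulated transcription factors that form a large family in the worm, were higher in the ogt-1 mutant where called. Of 259 genes 11 (4.25%) were higher, beside 1.26% of all genes, 0 were lower and 248 were not called. In the whole list 144 differences were positive and 115 negative, and the median was 0.02, beside -0.03 for all genes. With the replicate number as a block 15 were higher.

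The receptor with the smallest p was nhr-162, at 8.56, 8.73 and 8.79 in the ogt-1 mutant, against 7.74, 7.81 and 7.67 in the oga-1 mutant and 8.38 ± 0.02 (SD, n = 3) in wild type (0.96 ± 0.09, adjusted p = 0.000608). The largest difference was that of nhr-43, at 10.26, 10.49 and 10.78 in the ogt-1 mutant, against 9.41, 9.47 and 9.38 in the oga-1 mutant (1.09 ± 0.14, adjusted p = 0.00547). Its wild-type mean, 10.22, was closer to the ogt-1 mutant. In nhr-18 the signals were 8.81, 8.76 and 9.07 in the ogt-1 mutant, against 8.20, 8.20 and 8.14 in the oga-1 mutant, with wild type at 8.84 (0.70 ± 0.10, adjusted p = 0.00808). For nhr-180 the difference was 0.67 ± 0.11 (adjusted p = 0.0140, and 0.0506 without ogt-1 mutant replicate 1). The count of receptors called higher was 4 without ogt-1 mutant replicate 3, 5 without ogt-1 mutant replicate 1 and 6 without oga-1 mutant replicate 3. It was 7 without oga-1 mutant replicate 1, ogt-1 mutant replicate 2 or wild type replicate 2 or 3. Without oga-1 mutant replicate 2, 8 were higher and 1 was lower. With the RNA quality covariate 0 were called.

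Genes of ciliated sensory neurons were examined because the chemoreceptors act there. Of 33 such genes 4 (12.1%) were higher in the ogt-1 mutant, beside 1.26% of all genes, and 0 lower, with a median of 0.16. All 4, che-11, che-2, che-13 and che-3, belong to the intraflagellar transport machinery that builds the sensory cilium. The differences were small, from 0.54 ± 0.09 for che-11 (uncertain) down to 0.33 ± 0.07 for che-2, and che-2 was not called with the replicate block (adjusted p = 0.0519), which left 3. The count was 3 without wild type replicate 1, 2 without ogt-1 mutant replicate 2, 0 without ogt-1 mutant replicate 3 or oga-1 mutant replicate 2 and 1 without any of the others. The call of che-11 was lost without ogt-1 mutant replicate 1 or 3 or oga-1 mutant replicate 2 (0.0511 to 0.0733). The calls of che-2 and che-3 (uncertain) were lost without any 1 array other than wild type replicate 1, and that of che-13 without any 1 array other than ogt-1 mutant replicate 1 (0.0531 to 0.145 over the 3 genes). The mean level of 24 neuronal markers was 10.23 to 10.27 in the ogt-1 mutant, 10.09 to 10.16 in the oga-1 mutant and 10.08 to 10.38 in wild type. Of these markers 1 was called, rgef-1 (0.58 ± 0.12), which was lost without any 1 of the ogt-1 mutant arrays, oga-1 mutant replicate 2 or 3 or wild type replicate 2 or 3 (0.0542 to 0.109). Their part in the result for the ciliary genes was not tested.

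The chemoreceptors, the largest list, had low signals, with a mean level of 5.59 to 5.68 on the ogt-1 mutant arrays and 5.57 to 5.75 on the oga-1 mutant arrays. Of 1324 genes 10 (0.755%) were lower and 2 (0.151%) higher in the ogt-1 mutant, beside 1.67% and 1.26% of all genes. With the block the counts were 16 lower and 7 higher. After srw-85 the smallest p was that of srg-2, at 5.70, 5.46 and 5.76 in the ogt-1 mutant, against 7.03, 7.04 and 6.91 in the oga-1 mutant and 6.31 in wild type (-1.35 ± 0.10, adjusted p = 0.000190). The gene srx-66 averaged 6.18 ± 0.17 in the ogt-1 mutant, 7.20 ± 0.30 in the oga-1 mutant and 5.76 ± 0.09 in wild type (SD, n = 3 each). For srj-14 the difference was -0.79 ± 0.12. The lower count was 17 without oga-1 mutant replicate 1, 4 without ogt-1 mutant replicate 1 or oga-1 mutant replicate 2 or 3, 5 without wild type replicate 3 and 6 without ogt-1 mutant replicate 2 or wild type replicate 2. The 4 receptors named stayed called whichever array was left out.

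In the insulin-like pathway 2 of 17 genes between the receptor and DAF-16 were called, both higher in the ogt-1 mutant (3 with the block). One was shc-1 and the other the insulin receptor gene daf-2 (uncertain), at 6.70, 7.31 and 7.44 in the ogt-1 mutant, against 6.31, 6.25 and 6.42 in the oga-1 mutant. The daf-2 difference of 0.82 ± 0.19 (adjusted p = 0.0486) was lost without ogt-1 mutant replicate 2 or 3, any 1 of oga-1 mutant replicates 1 to 3 or wild type replicate 2 or 3 (0.0636 to 0.140). Of 24 insulin-like peptide genes 1 was called, ins-11 (uncertain, 0.76 ± 0.16), and with the block 2 were higher and 1 lower. It too was lost without ogt-1 mutant replicate 1 or 2, any 1 of the oga-1 mutant arrays or wild type replicate 2 (0.0640 to 0.104).

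In central metabolism the calls were spread thinly. The hexokinase gene hxk-1 read 12.08, 12.13 and 12.07 in the ogt-1 mutant, against 11.36, 11.29 and 11.08 in the oga-1 mutant and 11.18 ± 0.11 (SD, n = 3) in wild type (0.85 ± 0.10, adjusted p = 0.00289). It was the 1 gene called of 16 in glycolysis, as tre-2 was the 1 called of 8 in trehalose metabolism. None of 7 genes of gluconeogenesis and the glyoxylate cycle was called. In the list of 68 genes for the citric acid cycle or the respiratory chain 61 had a negative difference, with a median of -0.17. Of the 68, 0 were called higher and 4 (5.88%) lower, beside 1.67% of all genes. They were idhg-2 (-0.71 ± 0.13) and idhb-1 (-0.40 ± 0.09), for subunits of isocitrate dehydrogenase, sdha-2 (uncertain, -0.67 ± 0.12), for a subunit of succinate dehydrogenase, and the aconitase gene aco-1 (-0.53 ± 0.12). This count was 6 without ogt-1 mutant replicate 2 and 0 without ogt-1 mutant replicate 1 or oga-1 mutant replicate 2 or 3. It was 1 without ogt-1 mutant replicate 3 or oga-1 mutant replicate 1 and 2 without wild type replicate 2 or 3. The call of idhb-1 was lost without wild type replicate 1 as well, and the adjusted p of the lost calls was 0.0513 to 0.141 over the 4 genes. With the RNA quality covariate the list median was -0.03. The mean level of 15 intestinal markers was 10.30 to 10.54 in the ogt-1 mutant, 10.49 to 10.75 in the oga-1 mutant and 10.55 to 10.79 in wild type. Of these markers 14 had a negative difference, with a median of -0.26 (-0.02 with the covariate), and 1 was called higher (mtl-2, uncertain, 0.57 ± 0.12) and 0 lower (2 with the block). Their part in the result for this list was not tested.

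Lipid genes gave few calls. Of 26 lipases 2 were lower in the ogt-1 mutant, lips-15 and the lysosomal lipase gene lipl-1 (-1.16 ± 0.26, adjusted p = 0.0456). The call of lipl-1 was lost without ogt-1 mutant replicate 1 or 3, any 1 of the oga-1 mutant arrays or wild type replicate 2 or 3 (0.0677 to 0.135). Of 22 genes of fatty acid synthesis 1 was lower, the elongase gene elo-4, at 6.05, 5.92 and 5.87 in the ogt-1 mutant, against 6.55, 6.53 and 6.58 in the oga-1 mutant (-0.61 ± 0.08, adjusted p = 0.00491). One was higher, pod-2 (uncertain, 0.46 ± 0.10), the acetyl-CoA carboxylase gene, whose call was lost without any 1 array other than wild type replicate 1 (0.0512 to 0.134).

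In the one-carbon and sulfur pathways the methionine synthase reductase gene mtrr-1 read 10.81, 10.68 and 10.56 in the ogt-1 mutant, against 9.68, 9.96 and 9.77 in the oga-1 mutant and 10.31 in wild type (0.88 ± 0.11, adjusted p = 0.00504). The cystathionine gamma-lyase gene cth-1 and the thymidylate synthase gene tyms-1 were lower, at -0.73 ± 0.13 and -0.63 ± 0.10. These made up the 1 higher and 2 lower of 23 genes (3 lower with the block). The call of cth-1 was lost without ogt-1 mutant replicate 1 or 3 or oga-1 mutant replicate 1 or 2 (0.0556 to 0.0852), and that of tyms-1 without ogt-1 mutant replicate 3 (0.0509). In the hypoxia response rhy-1, a negative regulator of HIF-1, read 11.64, 11.30 and 11.28 in the ogt-1 mutant, against 10.38, 10.18 and 10.15 in the oga-1 mutant (1.17 ± 0.14, adjusted p = 0.00343). The carbonic anhydrase gene cah-4 averaged 11.31 ± 0.16 in the ogt-1 mutant, 12.03 ± 0.17 in the oga-1 mutant and 11.48 ± 0.02 in wild type (SD, n = 3 each). The mutants differed by -0.72 ± 0.11 (SE, adjusted p = 0.0113), and the oga-1 mutant did not pass against wild type (0.55, adjusted p = 0.0777).

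Calls in detoxification families were few and went in both directions, while most members of each family had a negative difference. Of 45 glutathione S-transferases 3 were higher and 2 lower in the ogt-1 mutant (4 and 3 with the block). The higher count was 1 without oga-1 mutant replicate 2 or 3. The lower count was 1 without any 1 of the ogt-1 mutant arrays, oga-1 mutant replicate 1 or 2 or wild type replicate 3. Beside gst-4, gst-14 was higher, at 6.38, 6.95 and 6.82 in the ogt-1 mutant, against 5.50, 5.68 and 5.38 in the oga-1 mutant (1.20 ± 0.15, adjusted p = 0.00424), and gst-41 (uncertain) lower (-0.86 ± 0.11, adjusted p = 0.00564). The call of gst-16 (uncertain, 0.61 ± 0.12) was lost without ogt-1 mutant replicate 2 or 3, any 1 of the oga-1 mutant arrays or wild type replicate 2 (0.0504 to 0.0881). Of 64 UDP-glucuronosyltransferases 1 was higher (ugt-13) and 2 lower, ugt-15 (-0.58 ± 0.10) and ugt-26 (-0.57 ± 0.11). The lower count was 5 with the block and 4 without ogt-1 mutant replicate 2. It was 0 without ogt-1 mutant replicate 1 or 3 or oga-1 mutant replicate 1 or 3, and 1 without oga-1 mutant replicate 2 or wild type replicate 3. Of 73 cytochrome P450 genes 1 was lower, cyp-14A4 (-0.41 ± 0.09), and its call was lost with the block (adjusted p = 0.0549) and without any 1 array other than ogt-1 mutant replicate 2 (0.0531 to 0.137). The list as a whole had 4 lower with the block and 2 without ogt-1 mutant replicate 2. The medians of these 3 families were -0.11, -0.08 and -0.15, beside -0.03 for all genes. Differences were negative in 28 of the 45, 38 of the 64 and 53 of the 73 genes.

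Immune-related and protease families also had few calls, in both directions. Of 220 C-type lectins 3 (1.36%) were higher and 4 (1.82%) lower in the ogt-1 mutant, near the 1.26% and 1.67% of all genes. The list median was -0.11, with 50 positive and 170 negative differences. With the block 12 were lower and 4 higher. The lower count was 8 without ogt-1 mutant replicate 2, 7 without wild type replicate 1, 0 without ogt-1 mutant replicate 1 or oga-1 mutant replicate 2 and 1 without ogt-1 mutant replicate 3, oga-1 mutant replicate 3 or wild type replicate 2 or 3. Beside clec-3, clec-143 was higher by 0.47 ± 0.07 (adjusted p = 0.0123). Of 38 lysozyme, saposin-like and thaumatin-like genes 2 were higher, with lys-6 (uncertain) at 7.22 ± 0.12 in the ogt-1 mutant, against 6.28 ± 0.12 in the oga-1 mutant (SD, n = 3 each, adjusted p = 0.00809). The other, lys-4 (uncertain, 1.19 ± 0.25, adjusted p = 0.0373), was not called without ogt-1 mutant replicate 1 or 3 or any 1 of the oga-1 mutant arrays (0.0699 to 0.101). With the block 2 genes of this list were lower as well, as they were without ogt-1 mutant replicate 2. The cathepsin B-like genes cpr-5 (uncertain) and cpr-8 were lower, among 26 cathepsins and aspartyl proteases with 1 higher and 2 lower. For cpr-5 the signals were 10.70, 10.51 and 10.75 in the ogt-1 mutant, against 11.74, 11.52 and 11.67 in the oga-1 mutant and 11.79 ± 0.33 (SD, n = 3) in wild type (-0.99 ± 0.15, adjusted p = 0.0121). They lay opposite to the aspartyl protease gene asp-7 (0.96 ± 0.18), which was not called without ogt-1 mutant replicate 2 or 3 or oga-1 mutant replicate 2 or 3 (0.0539 to 0.0890).

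Among germline and proliferation genes few were called, and those few were lower in the ogt-1 mutant. The Piwi gene prg-1 (uncertain), whose product binds the piRNAs of the germline, read 10.01, 10.08 and 9.93 in the ogt-1 mutant, against 11.83, 11.66 and 11.43 in the oga-1 mutant and 11.65 ± 0.17 (SD, n = 3) in wild type. The oga-1 mutant was at the level of wild type and all 3 arrays of the ogt-1 mutant were below both (-1.63 ± 0.12, adjusted p = 0.000192). It was the only one called of 55 germ granule and small RNA genes (1.82% lower, near the 1.67% of all genes). Their median was -0.05, with 24 positive and 31 negative differences. In this list 2 genes were lower without oga-1 mutant replicate 1 or wild type replicate 1. Of 52 cell cycle and DNA replication genes 0 were higher and 3 (5.77%) lower, beside 1.67% of all genes (5 lower and 1 higher with the block). They were the ribonucleotide reductase gene rnr-1 (uncertain, -0.86 ± 0.12, adjusted p = 0.00788), tyms-1 and the cyclin B gene cyb-3 (uncertain, -0.58 ± 0.12). The call of cyb-3 was lost without any 1 of the ogt-1 mutant arrays, oga-1 mutant replicate 1 or 3 or wild type replicate 2 or 3 (0.0551 to 0.109).

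Stress genes were each represented by single members. The gene osm-11 (uncertain), for a secreted Notch co-ligand whose loss makes worms resistant to osmotic stress, read 8.65, 8.90 and 8.72 in the ogt-1 mutant, against 10.02, 10.45 and 10.31 in the oga-1 mutant. Wild type lay between them at 9.46 ± 0.11 (SD, n = 3), and the mutants differed by -1.50 ± 0.12 (SE, adjusted p = 0.000368). It was the 1 gene called of 11 in its list. The small heat shock gene hsp-12.1 was lower (-1.16 ± 0.16, adjusted p = 0.00788), the 1 called of 23 (1 more was higher with the block), and so was the glutathione peroxidase gene gpx-4 (-0.68 ± 0.11, adjusted p = 0.0125), the 1 called of 27 genes of oxidative stress (2 lower without oga-1 mutant replicate 1).

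Several large groups gave no call between the mutants. Among 75 cytoplasmic ribosomal proteins, 34 proteasome subunits, 35 histones, 83 homeobox genes, 87 neuropeptides, 47 autophagy and lysosome genes and 19 genes of the unfolded protein response, 0 were called by limma. The medians ran from -0.07 for the proteasome to 0.17 for the histones. With the replicate block 3 histones and 1 neuropeptide were called higher, and 1 autophagy gene in each direction. Without wild type replicate 1 there was 1 call each among the ribosomal proteins (lower), homeobox genes (higher) and autophagy genes (higher) and 1 neuropeptide in each direction. Without oga-1 mutant replicate 1, 1 autophagy gene was higher, and without oga-1 mutant replicate 3, 1 histone was. Markers of embryos (23 genes), of adult yolk and oocytes (18) and of sperm (44) also gave 0 calls. With the block 1 embryo marker and 1 yolk or oocyte marker were lower and 1 sperm marker was higher.

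**Figure D5:**
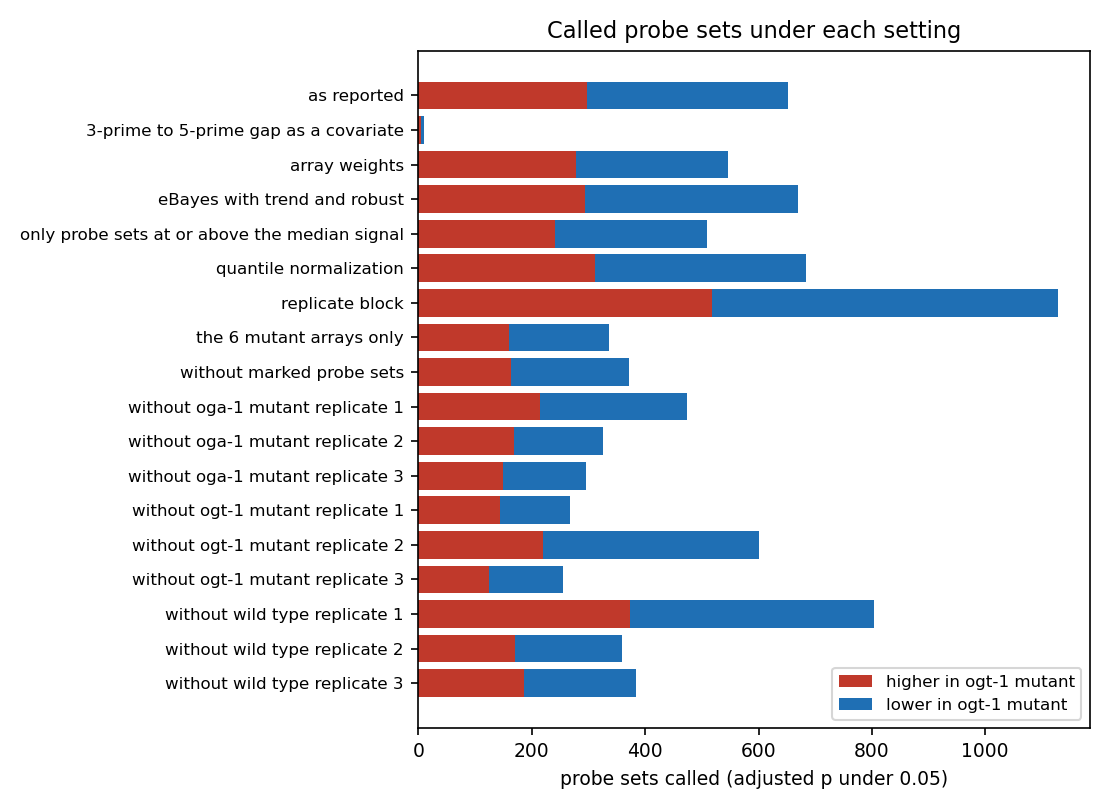
Number of probe sets called between the mutants under each setting, split into those higher (red) and lower (blue) in the ogt-1 mutant. The bar as reported stands at 652, the fit with the replicate block at 1128, the fit with the RNA quality measure as a covariate at 9, and the fits that leave out 1 array between 255 and 803.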

How the data were processed

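The authors deposited a single table with a log2 signal for each probe set on each array. MAS5, RMA and Partek are named in the submitters' processing notes, with no role or version. The summary method, the scaling and the logarithm's base are unstated in the labels. The values (3.74 to 14.9, array medians 7.42 to 7.47) were taken as log2 and used as deposited, with no filter and no pseudocount, so a shift common to all genes cannot be seen. Depth is not defined for arrays, and the number of arrays limits the precision. The 77 control probe sets served as quality measures only. Of the tested probe sets, 20766 carried 1 gene symbol in the platform annotation, 887 several and 895 none, and genes were named only from the first kind. Of those with 1 symbol, 20701 matched the RefSeq table of the WBcel235 assembly, used for names and gene order.

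All 9 arrays entered 1 limma model (limma 3.58.1, R 4.3.3, lmFit and eBayes) with a mean per genotype and no block, which left 6 residual degrees of freedom with a prior of 3.92. Where a gene had several probe sets, the one with the highest mean over 9 arrays stood for it. Named genes were the 12 largest differences in each direction among called probe sets with 1 symbol, no overlap and a higher mean at or above 7.45, the 5 largest in each place of wild type, ogt-1, oga-1 and the members of each list with the smallest p (up to 4, or 2 in lists with no call). The comparison, its members and the gene lists were chosen with earlier results of these data known. Single quality values were compared by an exact permutation test.

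The labels number the replicates without saying what a number marks. Deviations from the group mean correlated at 0.107, 0.200 and 0.322 between ogt-1 and oga-1 mutant arrays of the same number, and at -0.25 to 0.07 between unlike numbers. Same-number values with wild type ran from 0.100 to 0.303 for the ogt-1 mutant and from 0.0052 to 0.214 for the oga-1 mutant. Deviations cancel within a group, so the unlike-number values are no separate evidence. The numbers were taken as a possible pairing. Calls come from the fit without a block. Blocked values are given for the lists and genes described where they change a call or move a count by over 1.5 times. The alternatives were the block, the RNA quality covariate, the 6 mutant arrays alone, array weights, a trended and robust prior, quantile normalization, a signal filter, no marked probe sets (6711 are marked) and each array left out. The model was tested on simulated data with independent noise on each array. These data held no deviation shared by replicate number and no difference in RNA quality, so the test does not bear on either. Sequences and genome coordinates were not used here.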

Additional observations from a re-analysis of the deposited data

How the results depend on the processing

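All 652 called differences kept their direction under every alternative in which their probe set was tested, but not their calls. With the RNA quality covariate 9 probe sets were called (5 higher, 4 lower), all 9 of them past 2-fold, and 0 collagens and 0 nuclear hormone receptors. With the replicate block 1128 were called (518 higher, 610 lower), 632 of them shared with the 652. With the 6 mutant arrays alone the counts were 336 (159 higher, 177 lower), with 16 collagens and 6 receptors. Without marked probe sets they were 371 (163 higher, 208 lower), 61 past 2-fold, 10 collagens and 7 receptors. Leaving out 1 array gave 255 to 803 called, 125 to 374 higher, 124 to 429 lower, 79 to 128 past 2-fold, 9 to 27 collagens and 4 to 11 receptors. In these counts the collagens are those called lower and the receptors those called higher in the ogt-1 mutant. Array weights (547), the trended and robust prior (670), quantile normalization (684) and the signal filter (509) stayed within 1.5 times of 652.

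For the deleted genes the covariate left 0.57 (adjusted p = 1.00) and 0.87 (0.515) for the 2 probe sets of ogt-1, and 0.61 (0.954) and 0.87 (0.428) for the 2 called probe sets of oga-1. The third oga-1 probe set, not called, stood at 0.74 (0.381) with the covariate, beside 0.40. The weaker ogt-1 call was also lost with array weights (0.68, adjusted p = 0.0649) and with the 6 mutant arrays alone (0.78, 0.0815). Leaving out 1 array it ranged from 0.60 to 0.98 (adjusted p at most 0.123), and the second oga-1 probe set from 0.59 to 0.77. Of 142 named or listed called genes, 50 stayed called whichever array was left out and 136 with the block, and none changed direction. The 6 calls lost with the block were those of cyp-14A4, nhr-12, srw-71, srh-127, sqv-8 and che-2. Why the counts move was not tested. Background and detection were not assessed, so a difference between low signals may be understated.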

Other observations

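Genes called between the mutants were in places next to each other. Of 16173 measured genes with a position in the RefSeq order, 493 were called (3.05%). Among the measured genes, 24 pairs of called genes stood next to each other in that order, with any unmeasured gene between them passed over. The pairs took in 48 genes (9.74% of those called). A gene has a neighbour on either side, so this share is not comparable with 3.05%. Whether it exceeds that of a random order was not tested. In 21 pairs the 2 genes differed in the same direction and in 3 in opposite directions. The pairs included genes of 1 family: pud-3 and pud-4, grd-3 and grd-10 (-1.70 and -1.19), col-159 and col-160 (-1.47 and -0.96) and cpr-5 and cpr-8 (-0.99 and -1.01) were lower in the ogt-1 mutant. The nuclear hormone receptor pairs nhr-103 and nhr-18 (0.53 and 0.70) and nhr-162 and nhr-107 (0.96 and 0.58) were higher. The pair cutl-20 and shc-1 (0.98 and 2.92) joined genes of different families. Related neighbours may share probe sequence, and several of these probe sets are marked for cross-hybridisation. Of the 200 measured genes nearest to ogt-1 in the RefSeq order, 3 were called (1.5%), and of the 200 nearest to oga-1, 8 (4%).

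The markers of sperm, of which 0 of 44 were called, averaged 7.23 on ogt-1 mutant replicate 1, against 6.70 and 6.61 on ogt-1 mutant replicates 2 and 3, 6.69 to 6.71 in the oga-1 mutant and 6.50 to 6.59 in wild type. The array controls of catalase had a 3-prime excess of 1.32 to 2.09 in the ogt-1 mutant and 0.979 to 1.13 in the oga-1 mutant (two-sided exact permutation p = 0.1, the smallest possible).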
